A study of Homo sapiens with 8 samples.

Results

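The ADAM and ADAMTS genes encode related groups of zinc metalloproteinases. Of the 54174 gene symbols in the expression table, 10 were examined here by name: ADAM8, ADAM9, ADAM10, ADAM12, ADAM15, ADAM17, ADAM19, ADAMTS1, ADAMTS6 and ADAMTS7. All 10 had a value in each of the 8 RNA-seq libraries. The cells were 143B, a long-established line from a human osteosarcoma, harvested 48 h after transient transfection. Vector plasmid had been given to 4 control libraries and a plasmid labelled NELL1KO to 4 libraries labelled NELL1 knockout, called knockout libraries below. NELL1 encodes a secreted extracellular matrix protein, and the title of the series names the matrisome, the genes of the matrix and its modifiers, as the subject. The labels describe a transient transfection, name no selection step and do not say what share of the cells was edited.

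ADAM proteins are mostly anchored in the cell membrane, where the active ones cut the outer parts off growth factor precursors, cytokine receptors, adhesion molecules and Notch receptors, a process called ectodomain shedding. ADAMTS proteins are secreted, carry thrombospondin-type repeats and cleave matrix proteins such as the proteoglycans versican and aggrecan, fibrillin-associated proteins and procollagens. In bone, both groups take part in matrix remodelling and in the release of signalling proteins.

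Among the membrane-anchored members, ADAM8 fell to 46.1% of its control level in the knockout libraries, and ADAM15 rose 1.18-fold in the fit without a block. Among the secreted members, ADAMTS1 was 4.08-fold higher, or 1.11 on the log2 scale with a pseudocount of 1. ADAMTS6 was 2.45-fold higher in the fit without a block and was not called with it. ADAM19 lay lower in every knockout library without passing the test over all genes. ADAM9, ADAM10, ADAM12, ADAM17 and ADAMTS7 overlapped between the groups, and each had opposite directions in replicates 1 and 2 and in replicates 3 and 4.

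The deposited values are on a log2 scale and were quantile normalized, which gives every library the same distribution, so each change is relative to the rest of the transcriptome. The unit before the logarithm is not given in the sources used here, and levels are therefore compared between libraries for each gene and not between genes. Knockout libraries 1 and 2 were close to each other (SD across genes of the difference 0.12), as were 3 and 4 (0.13), whereas these pairs lay 0.46 to 0.50 apart. The controls did not split this way: control library 4 lay nearer to control libraries 2 (0.13) and 1 (0.15) than to control library 3 (0.19). Replicates 1 and 2 and replicates 3 and 4 are called the replicate sets below. These sets follow the knockout pairs, and the controls are divided by number only. Results are also given within each set and with each close knockout pair averaged to 1 library. NELL1 itself did not check the labels: its log2 value was between -6.97 and -4.53 in the controls and between -6.96 and -4.82 in knockout libraries 1, 2 and 4, with a blank cell in knockout library 3. Of 9 mesenchymal and osteoblast markers, VIM, CDH11, SPARC, RUNX2, ALPL and COL1A1 had a value in all 8 libraries, COL1A2 in 4, BGLAP in 3 and SP7 in 0. Of 8 markers of other cell types, the leukocyte genes PTPRC and CD3E had a value in 0 libraries, CDH5 in 6, KRT5 in 3 and CDH1 in 2, and CD68, EPCAM and PECAM1 in all 8. For controls and knockouts, CD68 averaged 5.84 ± 0.08 and 5.68 ± 0.17 and EPCAM 2.59 ± 0.15 and 2.27 ± 0.46 (SD, n = 4 per group), so the groups overlapped for both. Of the lineage markers high enough to be tested, VIM (log2 change -0.43) and CDH11 (-0.87) were called lower and SPARC (0.62) higher. VIM was lost with the replicate block (limma adjusted p = 0.0507), and with averaged knockout pairs all 3 were lost (limma adjusted p = 0.132 to 0.155). EPCAM was 1.83 and 1.94 in knockout libraries 3 and 4, below the lowest control (2.38), and its change in replicates 3 and 4 alone was -0.61 (limma adjusted p = 0.00376). The part of these markers in the results was not tested.

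**Figure D1:**
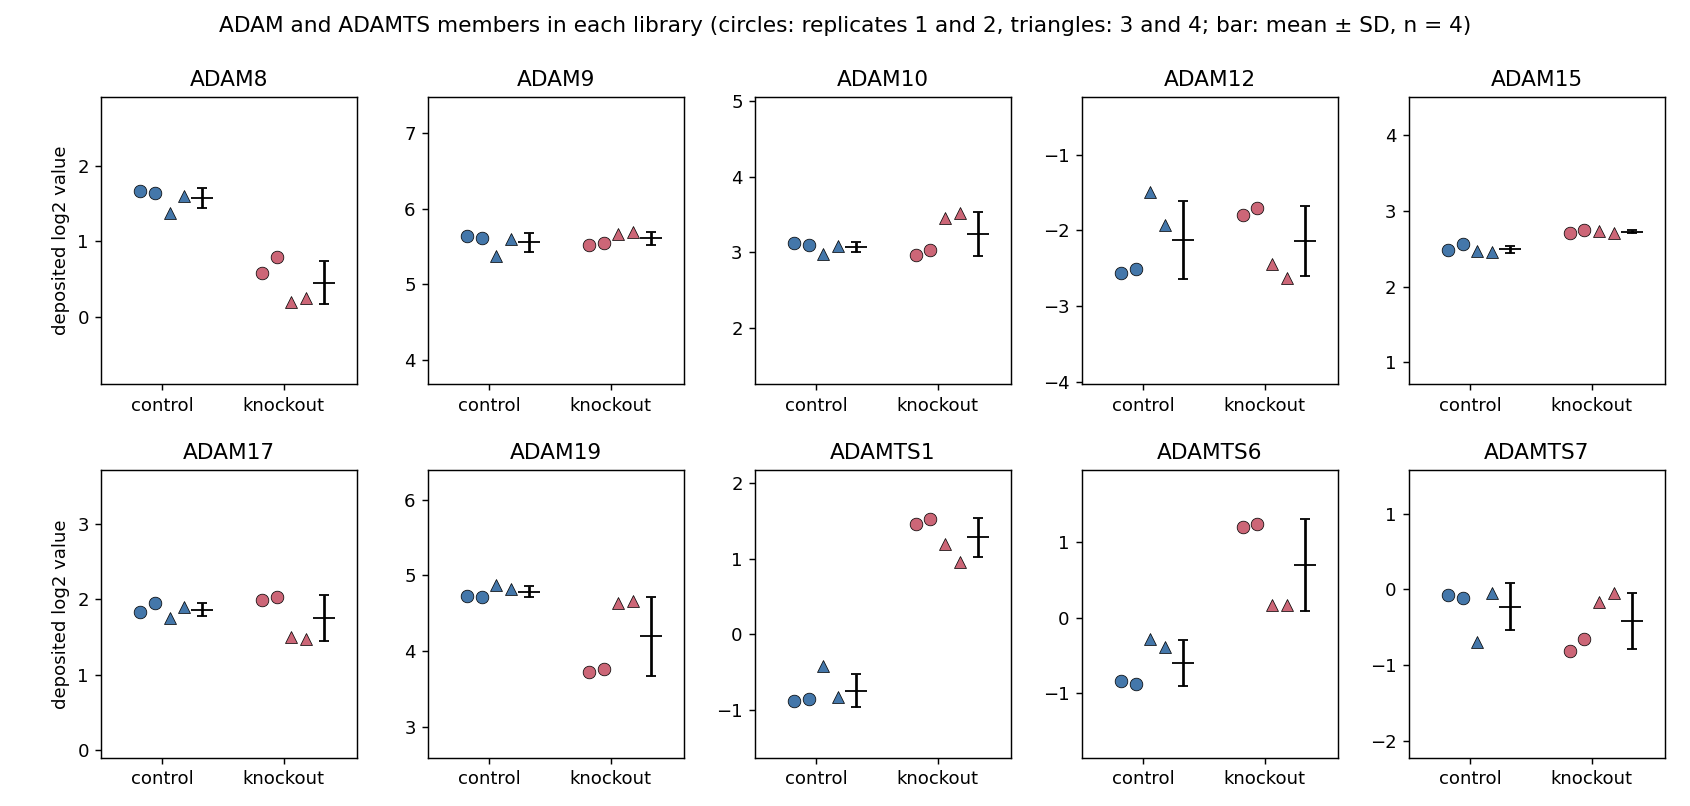
Deposited log2 value (y axis, a span of 3.8 log2 units in every panel) of the 10 members in the 4 control and 4 knockout libraries, with the mean and SD (n = 4) beside the points. ADAM8 and ADAM19 lie lower and ADAM15, ADAMTS1 and ADAMTS6 lie higher in all 4 knockout libraries. The knockout values split by replicate set, without overlap, in every member but ADAM15.

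Knockout and control libraries were compared with limma over the 9016 genes with 8 values and a mean log2 value of at least 1. A gene was called at a Benjamini-Hochberg adjusted p-value under 0.05, which 13.1% of the tested genes reached (7.02% higher and 6.1% lower). Of the 6 members above this mean, 2 were called: ADAM8, lower, and ADAM15, higher. With the replicate number as a block ADAM8 alone was called, against 10.2% of the tested genes. The other 4 members (ADAM12, ADAMTS1, ADAMTS6 and ADAMTS7) had means under 1 and were tested in a fit without this filter, over all 13943 genes with 8 values. There, 8.3% of genes and 3 of the 10 members were called: ADAM8, lower, and ADAMTS1 and ADAMTS6, higher. ADAM15 was not called in that fit (limma adjusted p = 0.0537). For 5 of the 10 members (3 higher, 2 lower) the ranges of the groups were apart, which was so for 20.4% of the 13943 genes. The median log2 fold change of the 10 members was 0.02, as was that of all 13943 genes.

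ADAM8 (chr10:133262423-133276868, GRCh38.p14, minus strand) encodes a sheddase first described in leukocytes, which also cleaves adhesion molecules. Its log2 values were 1.67, 1.64, 1.38 and 1.60 in control libraries 1 to 4 and 0.58, 0.79, 0.20 and 0.25 in knockout libraries 1 to 4. Every knockout value lay below every control value, and the lowest were in knockout libraries 3 and 4. The mean fell from 1.57 ± 0.13 to 0.45 ± 0.28 (SD, n = 4 per group). This log2 change of -1.12 had an SE of 0.14 (limma adjusted p = 0.00319). In bulk RNA, fewer cells that express a gene and less RNA per cell cannot be told apart. By set, the change was -0.97 (replicates 1 and 2) or -1.27 (replicates 3 and 4). It stayed called with the block (limma adjusted p = 0.00959) and with averaged knockout pairs (limma adjusted p = 0.0273), where 1.2% of the tested genes were called. With averaged pairs and no filter its limma adjusted p was 0.0758, in a fit that called 1 gene of 13943 (0.00717%). The mean of ADAM8 over all libraries was 1.01, just above the filter, and a pseudocount of 1 on the linear scale reduced its log2 fold change to -0.74 (limma adjusted p = 0.00313, with 13.2% of genes called).

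The tested genes whose centred values over the 8 libraries lay nearest to those of ADAM8 were SH2D2A, an adaptor in lymphocyte signalling, and CTSZ, a lysosomal cysteine protease. Their root mean square differences from ADAM8 were 0.10 and 0.11 log2 units. SH2D2A was 3.39, 3.40, 3.31 and 3.44 in the controls and 2.43, 2.54, 2.19 and 2.22 in the knockouts. CTSZ was 5.11, 5.04, 4.99 and 4.95 in the controls and 4.07, 4.22, 3.82 and 3.92 in the knockouts. Both were chosen for their likeness to ADAM8 in these libraries, so their pattern is a description.

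ADAM15 (chr1:155051316-155062775, GRCh38.p14, plus strand) encodes metargidin, an ADAM whose disintegrin domain binds integrins. Its log2 values were 2.49, 2.56, 2.47 and 2.45 in the controls and 2.71, 2.75, 2.74 and 2.71 in the knockouts, so the groups did not overlap and the knockout libraries were nearly level. The mean rose from 2.49 ± 0.05 to 2.73 ± 0.02 (SD, n = 4 per group). The log2 change of 0.23 had an SE of 0.06 (limma adjusted p = 0.0321). By set, the change was 0.20 (replicates 1 and 2) or 0.26 (replicates 3 and 4). The call was lost with the replicate block (limma adjusted p = 0.0770), with averaged knockout pairs (limma adjusted p = 0.182) and on leaving out any library other than control 3 (limma adjusted p = 0.0554 to 0.113). Its nearest genes were RBBP7, a histone-binding chromatin protein, and COCH, which encodes cochlin, at 0.02 and 0.03 log2 units. RBBP7 had a log2 fold change of 0.23 and COCH one of 0.19. As with the genes near ADAM8, they were chosen for their likeness in these libraries, so their changes are a description.

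ADAM19 (chr5:157477304-157575775, GRCh38.p14, minus strand), or meltrin beta, is known for shedding neuregulin. Its log2 values were 4.73, 4.72, 4.88 and 4.82 in the controls and 3.72, 3.76, 4.63 and 4.66 in the knockouts. All knockout values lay below all controls, but libraries 3 and 4 were much nearer to them than libraries 1 and 2. The log2 fold change of -0.59 (95% interval -1.10 to -0.08) did not pass over all genes (limma adjusted p = 0.120). It was -0.98 in replicates 1 and 2 (limma adjusted p = 5.557e-05, where 59.7% of genes were called) and -0.20 in replicates 3 and 4 (limma adjusted p = 0.100, where 33.1% were called). With a term for the replicate sets the limma adjusted p was 0.0212, in a fit that called 25.2% of genes.

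ADAM10 and ADAM17 are the best known sheddases: ADAM10 is the alpha-secretase of amyloid precursor protein and makes the first cut in ligand-bound Notch, and ADAM17 releases TNF and several EGF receptor ligands. ADAM10 was 3.12, 3.10, 2.97 and 3.09 in the controls and 2.96, 3.03, 3.46 and 3.52 in the knockouts. ADAM17 was 1.83, 1.96, 1.76 and 1.89 in the controls and 1.99, 2.03, 1.50 and 1.48 in the knockouts. Knockout libraries 3 and 4 thus lay above every control for ADAM10 and below every control for ADAM17, while knockout libraries 1 and 2 lay at or near the lower end of the control range for ADAM10 and above it for ADAM17. Pooled, the log2 fold change was 0.17 for ADAM10 (95% interval -0.13 to 0.48, limma adjusted p = 0.429) and -0.11 for ADAM17 (95% interval -0.43 to 0.21, limma adjusted p = 0.648). In replicates 3 and 4 alone the change was 0.46 for ADAM10 (limma adjusted p = 0.00645) and -0.33 for ADAM17 (limma adjusted p = 0.0224). In replicates 1 and 2 the changes were -0.11 and 0.12 (limma adjusted p = 0.0912 and 0.128).

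ADAM9 encodes a widely expressed sheddase and was 5.64, 5.61, 5.37 and 5.59 in the controls and 5.52, 5.55, 5.67 and 5.69 in the knockouts. The groups overlapped, with a log2 fold change of 0.05 (95% interval -0.13 to 0.24, limma adjusted p = 0.699). ADAM12, or meltrin alpha, has a membrane-bound and a secreted form and can cleave IGF-binding proteins. It was -2.57, -2.52, -1.49 and -1.92 in the controls and -1.79, -1.70, -2.44 and -2.62 in the knockouts. Here the replicate sets were mirror images: the change was 0.80 in replicates 1 and 2 (limma adjusted p = 0.0126, fit without the filter, where 34.9% of genes were called) and -0.82 in replicates 3 and 4 (limma adjusted p = 0.0551). Controls 1 and 2 also differed from controls 3 and 4, and the pooled change of -0.01 had a 95% interval of -0.73 to 0.70. ADAM12 was low on the scale in every library. A pseudocount of 1 took the SE of its pooled change from 0.31 to 0.07, and the sets are not given with a pseudocount.

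The largest difference among the members was in ADAMTS1 (chr21:26835755-26845409, GRCh38.p14, minus strand), a secreted protease that cleaves versican and aggrecan and is known to restrain angiogenesis. Its log2 values were -0.88, -0.85, -0.41 and -0.82 in the controls and 1.45, 1.52, 1.20 and 0.96 in the knockouts. All 4 knockout values lay over 1 log2 unit above all 4 controls. The mean rose from -0.74 ± 0.22 to 1.28 ± 0.26 (SD, n = 4 per group). The log2 change of 2.03 had an SE of 0.16 (limma adjusted p = 0.00327, fit without the filter). By set, the change was 2.35 (replicates 1 and 2) or 1.70 (replicates 3 and 4). It stayed called with the block (limma adjusted p = 0.0312), where 3.02% of the 13943 genes were called. With averaged knockout pairs the limma adjusted p was 0.0628. Because ADAMTS1 lay low on the scale, a pseudocount of 1 reduced its log2 fold change to 1.11 (limma adjusted p = 0.000899, where 12% of genes were called).

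ADAMTS6 (chr5:65148738-65481920, GRCh38.p14, minus strand) encodes a secreted relative of ADAMTS10 that acts on fibrillin microfibrils and latent TGF-beta binding proteins. It was -0.84, -0.88, -0.29 and -0.39 in the controls and 1.20, 1.25, 0.18 and 0.17 in the knockouts. The groups did not overlap, and the knockout values of libraries 1 and 2 lay about 1 log2 unit above those of libraries 3 and 4. The log2 fold change was 1.30 with an SE of 0.30 (limma adjusted p = 0.0413, fit without the filter), split into 2.08 for replicates 1 and 2 and 0.51 for replicates 3 and 4 (16.2% of genes passed in the latter). The call was lost with the block (limma adjusted p = 0.116) and with averaged pairs (limma adjusted p = 0.159), and a pseudocount of 1 gave 0.68 (limma adjusted p = 0.0438). Without knockout libraries 1 to 3 in turn, or control libraries 1, 2 or 4, the limma adjusted p was 0.0508 to 0.118.

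ADAMTS7, which cleaves COMP, a cartilage matrix protein, was -0.07, -0.11, -0.69 and -0.04 in the controls and -0.82, -0.65, -0.16 and -0.05 in the knockouts. The groups overlapped, with a log2 fold change of -0.19 (95% interval -0.70 to 0.32, limma adjusted p = 0.622). It was -0.64 in replicates 1 and 2 (limma adjusted p = 0.0187) and 0.26 in replicates 3 and 4 (limma adjusted p = 0.486). ADAMTS7 has near-identical pseudogene copies (ADAMTS7P1, ADAMTS7P3 and ADAMTS7P4 are listed with blank cells), and how reads shared with them were assigned is not given in the sources used here. In GENCODE 29, MORF4L1 overlaps ADAMTS7 and IAH1 overlaps ADAM17 on the opposite strand, by 978 and 8058 bases; the library kit marks strand, and whether counting used it is not given either.

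The start regions of ADAM8 and ADAMTS6, a member that fell and one that rose, are shown for comparison. They are the 250 bases before the RefSeq start on GRCh38.p14, read 5′ to 3′ on the minus strand of chr10:133276869-133277118 and of chr5:65481921-65482170. Capitals mark matches, on either strand, to any of 3 motifs chosen with the sequences in view: TEAD (GGAATG), a CRE half-site (TGACG) and AP-1 (TGANTCA).
ADAM8: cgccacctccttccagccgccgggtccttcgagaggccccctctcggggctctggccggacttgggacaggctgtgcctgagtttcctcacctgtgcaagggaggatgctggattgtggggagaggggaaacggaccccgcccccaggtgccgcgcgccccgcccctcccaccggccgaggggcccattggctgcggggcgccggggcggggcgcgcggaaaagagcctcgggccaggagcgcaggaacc
ADAMTS6: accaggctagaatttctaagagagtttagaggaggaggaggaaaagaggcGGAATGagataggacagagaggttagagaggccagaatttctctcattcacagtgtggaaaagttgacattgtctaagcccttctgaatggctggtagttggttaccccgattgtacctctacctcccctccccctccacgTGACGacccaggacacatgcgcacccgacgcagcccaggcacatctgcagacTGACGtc
The ADAM8 window had a GC content of 73.6% and held none of the 3 motifs. The ADAMTS6 window had a GC content of 52.4% and held the TEAD letters once, 200 to 195 bases before the start. It held the CRE half-site at 59 to 55 and at 7 to 3 bases before the start, and no matches overlapped. Of 35116 RefSeq windows of the same length, 11.9% held the TEAD letters, 21.2% the CRE half-site and 6.57% the AP-1 letters. Promoter entries were found for 8 of the 10 members, and ADAMTS1 and ADAM9 were not among them.

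**Figure D2:**
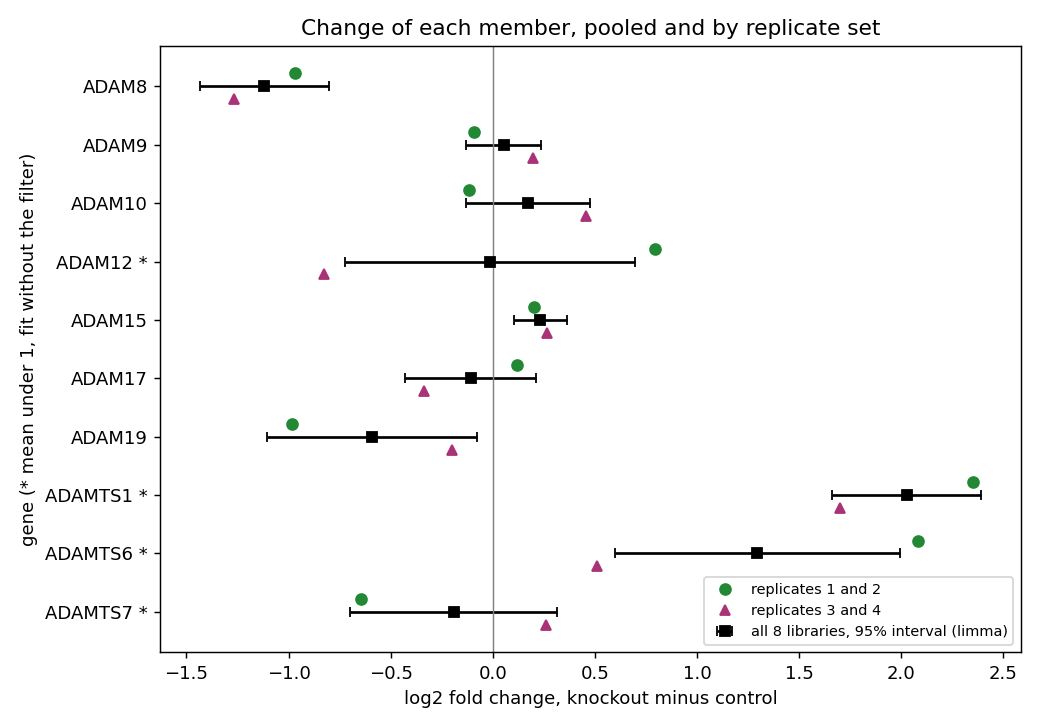
Log2 fold change, knockout minus control (x axis), of each member over all 8 libraries with its 95% limma interval, and within each replicate set. The intervals of ADAM8, ADAM15, ADAM19, ADAMTS1 and ADAMTS6 lie on one side of 0 before adjustment over all genes, and the replicate sets lie on opposite sides of 0 for ADAM9, ADAM10, ADAM12, ADAM17 and ADAMTS7.

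Of the 10 members, 5 had the same direction in both replicate sets and 5 had opposite directions, against opposite directions for 43.5% of the 13943 genes. The sets were recognised from these libraries, so the difference between them was not tested for single members. The same-direction members were ADAM8, ADAM15, ADAM19, ADAMTS1 and ADAMTS6. Their groups did not overlap, which by itself fixes the same direction in both sets.

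The rest of the family comprised 37 genes: the other ADAM and ADAMTS genes, not all of which encode active proteases, and those of the ADAMTS-like proteins, which lack the protease domain. Of these, 29 had a value in some library, 26 had 8 values and 4 (ADAM23, ADAMTS12, THSD4 and PAPLN) were high enough to be tested. One of the 4, ADAMTS12, a matrix protease known to cleave COMP, was called, beside 13.1% of all tested genes. The call was lost without control library 1, 2 or 4 or knockout library 3 or 4, which each left 0 of the 4. Over all tested genes, these omissions left 444, 431, 391, 716 and 910 called, against 1183. ADAMTS12 was 2.59, 2.59, 2.90 and 2.72 in the controls and 3.00, 2.98, 3.49 and 3.54 in the knockouts, without overlap. Its log2 fold change was 0.55 with an SE of 0.15 (limma adjusted p = 0.0454), and it was lost with averaged pairs (limma adjusted p = 0.141) and in the fit without the filter (limma adjusted p = 0.0710). Outside the naming rule, 2 of the 26 family genes were called without the filter, ADAM11 and ADAMTSL4, beside 8.3% of all 13943 genes. ADAM11, whose protein lacks protease activity, rose by 0.65 (limma adjusted p = 0.0326; 0.0665 with the block). ADAMTSL4, which binds fibrillin microfibrils, changed by -0.82 (limma adjusted p = 0.0246). With averaged pairs, ADAM11 and ADAMTSL4 were not called (limma adjusted p = 0.107 and 0.140), in a fit that called 1 gene of 13943. The median log2 fold change of the 26 genes was 0.02, as over all genes. The aggrecanase ADAMTS5 was low, between -5.95 and -4.43 in every library, and ADAMTS4 had a value in 2 libraries.

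**Figure D3:**
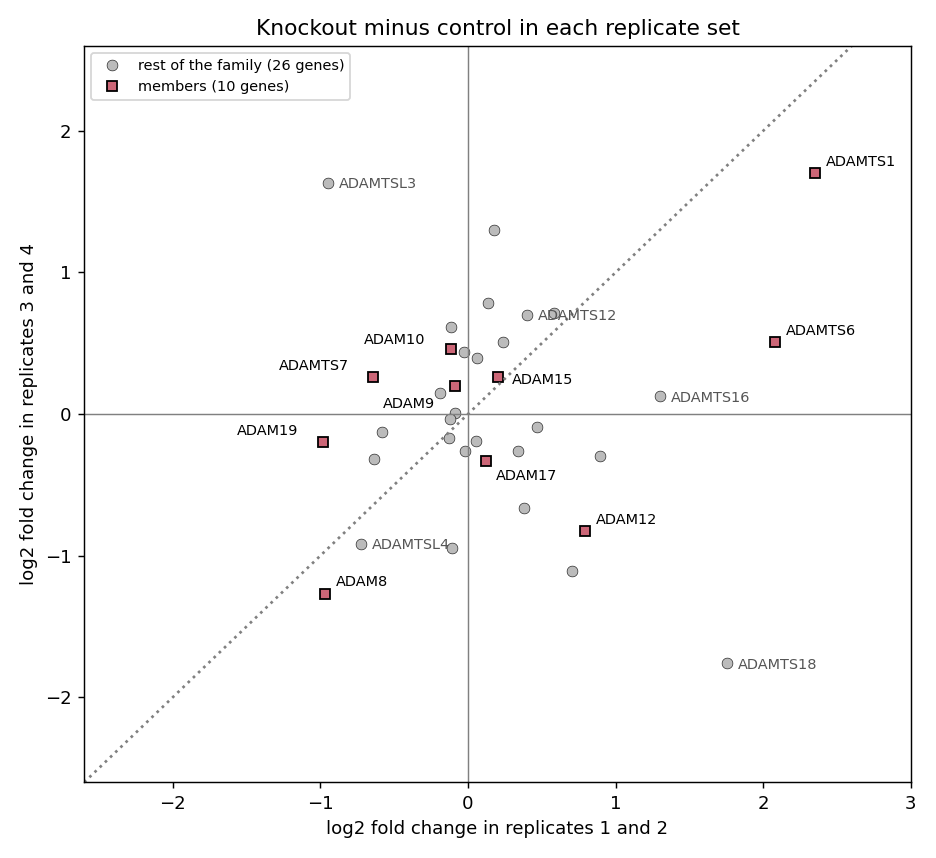
Log2 fold change in replicates 1 and 2 (x axis) against replicates 3 and 4 (y axis) for the 10 members and the 26 other family genes with 8 values, with a dotted line of equality. ADAMTS1 and ADAM8 lie far from 0 in both sets, and ADAM12 lies in the quadrant of opposite directions.

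Regulators of these proteases were taken from a list of 24 genes: endogenous inhibitors, the iRhoms that carry ADAM17 to the surface, the tetraspanins that do so for ADAM10, activating convertases and enzymes that modify thrombospondin repeats. Of 19 tested, 3 were called, all lower, beside 13.1% of all tested genes, and the list median was -0.03 against 0.01 over all tested genes. Without control library 1, 2 or 4 the count was 1, and with averaged pairs it was 0. Over all 9016 tested genes, 444, 431 and 391 were called without control library 1, 2 or 4, and 108 with averaged pairs. A term for the replicate sets gave 2 higher and 5 lower, replicates 1 and 2 alone 2 higher and 10 lower, and replicates 3 and 4 alone 6 higher and 4 lower. These 3 settings called 25.2%, 59.7% and 33.1% of all tested genes, in that order. TIMP1, a secreted metalloproteinase inhibitor, was 5.51, 5.52, 5.05 and 5.43 in the controls and 4.44, 4.42, 4.59 and 4.66 in the knockouts. The groups did not overlap, and its log2 fold change was -0.85 with an SE of 0.12 (limma adjusted p = 0.00491). With averaged pairs its limma adjusted p was 0.0566. TIMP3, the main endogenous inhibitor of ADAM17 and the ADAMTS proteases, had a change of 0.19 (95% interval -0.51 to 0.88) that was not called. Its sets went opposite ways, with -0.25 in replicates 1 and 2 (limma adjusted p = 0.0103) and 0.62 in replicates 3 and 4 (limma adjusted p = 0.00420).

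TIMP4 was not called without the block (-1.08, limma adjusted p = 0.0524) and was called with it (limma adjusted p = 0.0200). Its groups overlapped (2.03 in knockout library 2 against 1.88 in control library 3), and with averaged pairs its limma adjusted p was 0.160. RHBDF1, which encodes iRhom1, fell by 0.40 (limma adjusted p = 0.0196), in both replicate sets (-0.57 and -0.22). TSPAN5, one of the ADAM10-binding tetraspanins, fell by 0.33 (limma adjusted p = 0.0407), with -0.15 and -0.51 in the sets. Both calls were lost with the block (limma adjusted p = 0.0624 and 0.0918) and with averaged pairs. The convertase FURIN, which activates ADAM precursors, had a change of -0.22 and was not called, with -0.70 in replicates 1 and 2 and 0.25 in replicates 3 and 4.

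Membrane proteins known to be shed by ADAM proteases formed a list of 39 genes, of which 20 were tested and 6 called, 2 higher and 4 lower, beside 13.1% of all tested genes. The list median was -0.09 against 0.01. KITLG, the ligand of the KIT receptor, was 0.60, 0.57, 1.12 and 0.78 in the controls and 2.82, 2.79, 2.22 and 1.90 in the knockouts. ALCAM, an adhesion molecule, rose by 0.75 (limma adjusted p = 0.0460). ICAM1, an adhesion receptor for leukocytes, was 4.86, 4.90, 4.30 and 4.69 in the controls and 3.33, 3.31, 2.98 and 2.95 in the knockouts. For KITLG and ICAM1 the groups did not overlap, and both genes stayed called with averaged pairs (limma adjusted p = 0.0299 for KITLG and 0.0270 for ICAM1). With averaged pairs and no filter neither was called, in a fit that called 1 gene of 13943 (0.00717%).

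The Notch ligand JAG1 fell by 0.59 (limma adjusted p = 0.00898), and the receptor NOTCH2, a substrate of ADAM10, fell by 0.44 (limma adjusted p = 0.0466). SDC4, a cell surface heparan sulfate proteoglycan, fell by 0.76 (limma adjusted p = 0.0110). With the block, ALCAM and NOTCH2 were no longer called (limma adjusted p = 0.0935 and 0.0783), and with averaged pairs neither were JAG1 and SDC4. The ADAM17 substrate TNFRSF1A changed by -0.15 and the ADAM10 substrates CD44, APP and CDH2 by -0.10, -0.15 and 0.08. None of these 4 was called over the 8 libraries. CD44 and APP went opposite ways by set. In replicates 1 and 2 they changed by -0.46 and -0.42 (limma adjusted p = 0.00074 and 0.00133, where 59.7% of genes were called). In replicates 3 and 4 they changed by 0.26 and 0.13 (limma adjusted p = 0.133 and 0.278). By set, TNFRSF1A changed by -0.16 and -0.15 and CDH2 by 0.15 and 0.0015.

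Matrix substrates of ADAMTS proteases formed a list of 19 genes, of which 9 were tested and 2 called, both lower, beside 13.1% of all tested genes, with a list median of -0.06 against 0.01. The count was 0 without control library 1, 2 or 4 or knockout library 2. Over all tested genes, the same omissions left 444, 431, 391 and 856 called, against 1183. Versican (VCAN), a proteoglycan cut by ADAMTS1, was 2.11, 2.14, 2.36 and 2.38 in the controls and 1.45, 1.72, 1.90 and 1.87 in the knockouts. All knockout values lay below all controls, with a log2 change of -0.51 and an SE of 0.12 (limma adjusted p = 0.0261). Fibronectin (FN1) was 6.12, 6.08, 5.97 and 6.12 in the controls and 4.15, 4.33, 5.37 and 5.42 in the knockouts, with a larger fall in libraries 1 and 2. With averaged pairs neither was called (limma adjusted p = 0.104 and 0.0774). These are transcript levels, and protease activity or cleavage was not measured.

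**Figure D4:**
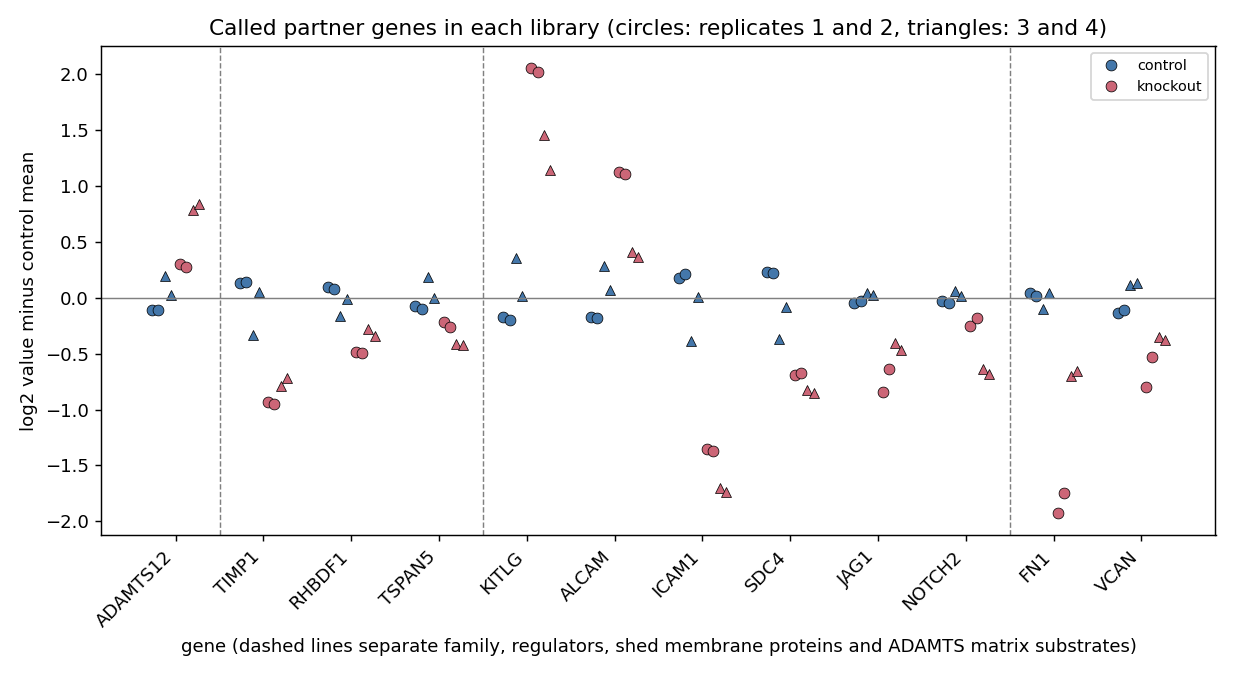
Log2 value minus the control mean (y axis) of the 12 called genes of the other lists in each control and knockout library. KITLG, ALCAM and ADAMTS12 lie higher and the other 9 genes lower in all 4 knockout libraries.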

How the data were processed

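Total RNA was sequenced from 4 control and 4 knockout libraries of 143B cells. TRIzol extraction was followed by an Illumina TruSeq Stranded library kit, per the labels' protocols. The submitters' processing notes name bcl2fastq, Partek 7.0 and GRCh38; the aligner, the counting program and the annotation are not given in the sources used here. The deposited table holds log2 values, 1 per gene symbol and library, with base 2 inferred from their range. Control library 1 had a mean of 1.07, a lowest value of -10.5 and a highest of 12.1. The columns are recorded as quantile normalized, and the same values for the other libraries are not given here. Blank cells were treated as missing. Values were present for 14911 to 15171 genes per library. Without counts the depth is unknown, and precision rests on the spread between libraries, which the design text calls biological replicates.

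Groups came from the sample titles. limma 3.58.1 (in R 4.3.3, with eBayes and no variance trend) was fitted to the 9016 genes with 8 values and a mean of at least 1, with no covariate, and p-values were adjusted over all of them by the Benjamini-Hochberg method. Intervals are 95% limma intervals before adjustment. The 4 members with lower means were first to be described by values only; the fit without the filter, and its repeats under each alternative, give their tests. The members and gene lists were chosen with earlier results of these data known, and the lists come from general knowledge. Named were all members, NELL1, up to 4 called rises and 4 called falls of each list, and the 2 tested genes nearest to each member called in the filtered fit; other genes with values were chosen after these were seen. THSD4 was used for the older symbol ADAMTSL6.

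Same-numbered control and knockout libraries deviated together from their group means (correlation across genes 0.24, 0.27, 0.29 and 0.20 for numbers 1 to 4). Correlations of differently numbered libraries are not given, so these values alone do not show pairing by number. The numbers come from the titles, so a fit with the replicate number as a block is given beside each named member or list gene whose call it changed. Other alternatives were the filter, a pseudocount of 1, centring, quantile normalizing once more, modelling a variance trend, a term for the replicate sets, each set alone, averaged knockout pairs, an adjusted p under 0.01 and leaving out each library. The fit was tested on simulated data with independent noise in each library. That simulation held no close knockout pairs, so it could not show their effect on the calls. Positions and promoter sequences are from RefSeq (GRCh38.p14), overlapping genes from GENCODE 29.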

Additional observations from a re-analysis of the deposited data

Results flagged for a closer look

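In 2 of the 44 groups of 4 libraries checked, 1 library stood apart from the other 3; chance gives about 1 such group in 20. Both concern control library 3. ADAMTS1 was -0.41 there and between -0.88 and -0.82 in the other controls. Without that library its log2 fold change was 2.14 (limma adjusted p = 0.00499, fit without the filter). ADAMTS7 was -0.69 in control library 3 and between -0.11 and -0.04 in the other controls, and without that library its log2 fold change was -0.35 (limma adjusted p = 0.316). Over all tested genes, the SD of the difference between control library 3 and another control was 0.19 to 0.29, against 0.10 to 0.15 among the other controls. The part of this distance in the ADAMTS1 and ADAMTS7 values was not tested.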

How the results depend on the processing

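Against 1183 called genes, a mean of at least 3 gave 729, an adjusted p under 0.01 gave 272, averaged knockout pairs 108, a term for the replicate sets 2274, replicates 1-2 alone 5380, replicates 3-4 alone 2987 and leaving out 1 library 391 to 1353 (444, 431 and 391 without control 1, 2 or 4, and 716 without knockout 3). Against 2 called members, the replicate block, averaged pairs and an adjusted p under 0.01 each gave 1 (ADAM8), replicates 3-4 alone 4, a mean of at least 3 gave 0, because it removes ADAM8 and ADAM15, and leaving out 1 library 1 to 2 (1, ADAM8, for every library but control 3). ADAM8 was called under every listed setting that tested it, and was lost in 1 added repeat, averaged pairs without the filter. Reversed directions were all in members not called over the 8 libraries: in replicates 1-2 alone, ADAM9 (-0.089), ADAM10 (-0.11), ADAM12 (0.80) and ADAM17 (0.12); in replicates 3-4 alone, ADAMTS7 (0.26); without control library 3, ADAM9 (-0.0062, with 0.083 as the highest value on leaving out 1 library) and ADAM12 (0.20); and for ADAM12 without control library 4 (0.05), knockout library 3 (0.09) or knockout library 4 (0.15), with -0.16 as its lowest value. The cause was not tested. The paired fit, with the replicate block, lost ADAM15 (limma adjusted p = 0.0770) and ADAMTS6 (0.116) and changed no other call among the members. The repeats without the filter were added after the data were seen. Depth is unknown, and 4 libraries per group limit the precision.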

Other observations

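Several proteins processed by these proteases had mean log2 values under 1 and were examined only in the fit without the filter; they were chosen after their values were seen. NRG1, which encodes the growth factor neuregulin 1 and is shed by ADAM19, was -0.63, -0.62, -0.19 and -0.22 in the controls and 1.03, 0.96, 0.16 and 0.28 in the knockouts. Its log2 change was 1.02 (limma adjusted p = 0.0376; 0.113 with the block). L1CAM, an adhesion molecule, fell by 1.25 (limma adjusted p = 0.0388; 0.0989 with the block), and LRP1, an endocytic receptor that also clears proteases, fell by 0.89 (limma adjusted p = 0.0291; 0.0765 with the block). NID2, a basement membrane protein cleaved by ADAMTS1, rose by 0.53 (limma adjusted p = 0.0357; 0.0879 with the block). TNFRSF1B, the second TNF receptor, was between -1.58 and -1.03 in the controls, -2.57 and -2.99 in knockout libraries 1 and 2 and -6.07 and -7.55 in knockout libraries 3 and 4. All its knockout values lay below all controls, and its change of -3.42 was not called (limma adjusted p = 0.0879). The values of TNFRSF1B in knockout libraries 3 and 4 were low on the scale, and a fit with a pseudocount is not given for it.

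Among the family genes outside the 10 members, ADAMTSL3, an ADAMTS-like matrix protein, was -1.57 and -1.19 in knockout libraries 1 and 2, 1.46 and 1.50 in knockout libraries 3 and 4 and between -0.50 and 0.00 in the controls. ADAMTS18 was -3.57 and -4.25 in knockout libraries 1 and 2 and -6.88 and -7.74 in knockout libraries 3 and 4, with controls between -6.18 and -5.16. The knockout libraries therefore lay on both sides of all controls for these genes, and their pooled changes of 0.34 and 0.00 had 95% intervals of -1.35 to 2.04 and -2.09 to 2.08. ADAMTS18 was low on the scale in every library, and a fit with a pseudocount is not given for either gene.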
